A study of Mus musculus with 3 samples.

Results

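The 8 genes that encode peptide hormones of the islet, gut and brain, Cck, Npy, Gcg, Sst, Penk, Cartpt, Ppy and Pyy, were followed in MIN6 cells, a mouse line derived from an insulinoma, a tumour of insulin-secreting cells. They were taken by symbol from a table of 21899 gene symbols, and all 8 members were found there, each with 1 line. RNA was sequenced in 3 groups with 1 library each: cells transfected with an siRNA against Srsf1 (siSRSF1), with an siRNA against Srsf2 (siSRSF2) or with a negative control siRNA (siNC). SRSF1 and SRSF2 are SR proteins that bind RNA and act in splicing. All 3 libraries are from the same line, and each was transfected with an siRNA; no dose, time after transfection, siRNA sequence or number of cultures is stated in the labels. With 1 library per group no difference has a replicate check, so no test was run, and all intervals are 95% intervals for counting error only.

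Peptide hormones are made as longer precursors that enter the secretory pathway, where prohormone convertases cut them at basic residues and further enzymes trim and amidate the ends. In the islet the products are divided among cell types: alpha cells make glucagon, delta cells somatostatin and PP cells pancreatic polypeptide, while insulin and amylin mark the beta cell. Neuropeptides such as neuropeptide Y, CART and cholecystokinin are also made by islet cells of rodents, in amounts that depend on age, strain and metabolic state.

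The libraries held 14478045 reads in siSRSF1, 14682576 in siSRSF2 and 12688334 in siNC. Srsf2 stood at 0.343 of siNC in the siSRSF2 library (0.308 to 0.381), and Srsf1 at 0.683 of siNC in the siSRSF1 library (0.652 to 0.716). Of 11 beta-cell markers, 10 had at least 20 reads in 1 library. Ins2 was at 19012 FPKM in siSRSF1, 26416 in siSRSF2 and 18912 in siNC, where FPKM is reads per kilobase of gene length, scaled to the library total. Other markers were low. Ucn3 had 9 reads in siSRSF1, 7 in siSRSF2 and 1 in siNC. Slc2a2 was at 1.37 FPKM in siSRSF1, 0.0828 in siSRSF2 and 0.575 in siNC. Of 14 exocrine and duct markers 13 were in the table, and 7 of these, Prss1 and Cpa1 among them, had 0 reads in every library. Their summed level was 158 CPM in siSRSF1, 211 in siSRSF2 and 224 in siNC, mostly from Spp1, the gene of osteopontin, with 1596 reads in siSRSF1, 2840 in siSRSF2 and 2529 in siNC. Of 15 markers of stroma, endothelium and immune cells, 2 reached 20 reads in any library, and their summed level was 19.8 CPM (reads as a share of scaled depth, in the usual CPM unit) in siSRSF1, 6.54 in siSRSF2 and 8.59 in siNC. Most of the siSRSF1 excess was the lysosomal protein gene Cd68, with 232 reads in siSRSF1, 55 in siSRSF2 and 56 in siNC. Neuron and glia markers summed to 687 CPM in siSRSF1, 664 in siSRSF2 and 653 in siNC, mostly from Map2 and Snap25, which endocrine cells also express, while Gfap and S100b had 0 reads throughout. The markers called were Krt7, a keratin of duct cells, and Cd68, both higher in siSRSF1 against either other library, Tubb3, a neuronal tubulin, higher in siSRSF1 against siNC (2.87), and Syt1, a synaptotagmin, lower in siSRSF1 against siSRSF2 (0.406). The part of these markers in the results was not tested. Fewer cells of a type and less RNA per cell cannot be told apart in such bulk libraries.

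The 8 genes spanned more than 3 orders of magnitude in level per length, and their order was the same in each library. Cck, which encodes cholecystokinin, the gut and brain peptide that drives gallbladder contraction and pancreatic enzyme release, was by far the most abundant. It had 83276 reads in siSRSF1, 90798 in siSRSF2 and 36228 in siNC. Its level per length was 4408 FPKM in siSRSF1, 4739 in siSRSF2 and 2188 in siNC. That placed Cck as the 4th highest gene of the whole table in siSRSF1 and in siSRSF2, and as the 11th in siNC. It was above Ins1 in each library, by 2.02 times in siSRSF1, 1.85 times in siSRSF2 and 1.26 times in siNC. Against Ins2, the more abundant insulin gene, Cck stood at 23.2% in siSRSF1, 17.9% in siSRSF2 and 11.6% in siNC.

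**Figure D1:**
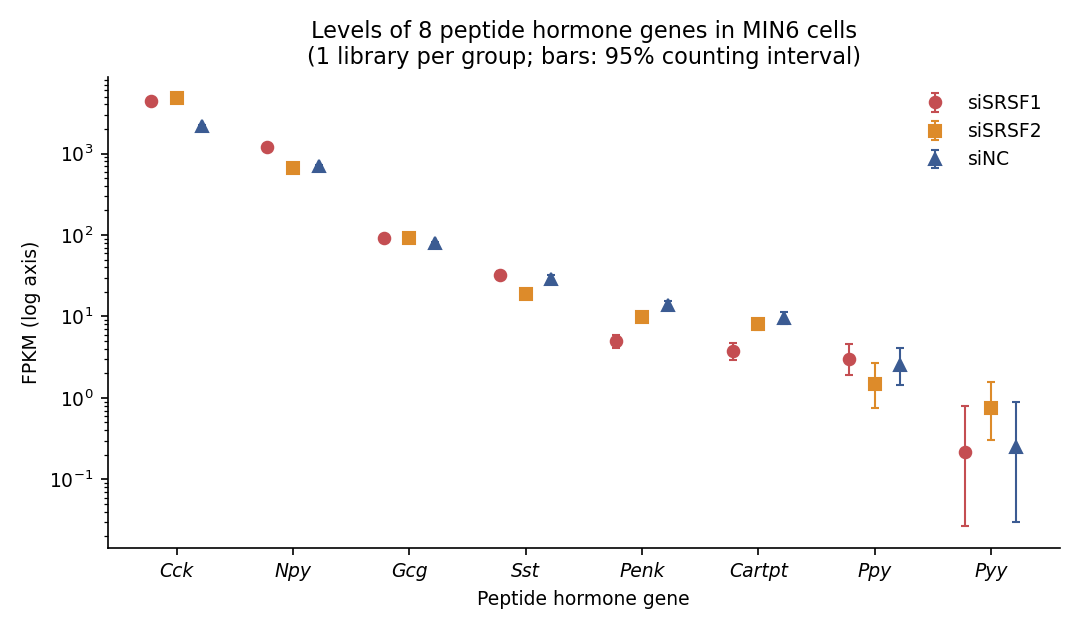
Level of each peptide hormone gene in FPKM on a log axis, with 1 point per library (circles siSRSF1, squares siSRSF2, triangles siNC) and bars for the 95% counting interval. Cck lies between 2188 and 4739 FPKM and Pyy below 1 FPKM in every library.

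Npy, the precursor of the appetite-stimulating neuropeptide Y, came next. It was at 1211 FPKM in siSRSF1, 660.5 in siSRSF2 and 697.6 in siNC. Its reads numbered 9923 in siSRSF1, 5489 in siSRSF2 and 5010 in siNC. Cck and Npy together made up nearly all of the summed level of the 8 genes; the other 6 held 2.39% of it in siSRSF1, 2.38% in siSRSF2 and 4.42% in siNC. Gcg, which encodes the precursor of glucagon and of GLP-1, followed at 93.2 FPKM in siSRSF1, 92.5 in siSRSF2 and 78.8 in siNC. Sst, the gene of somatostatin, which inhibits the release of insulin and glucagon, was at 32.5 FPKM in siSRSF1, 18.8 in siSRSF2 and 28.6 in siNC. The ratio of Gcg to Sst per length was 2.87 in siSRSF1, 4.92 in siSRSF2 and 2.75 in siNC.

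Penk and Cartpt were lower again. Penk, the precursor of the opioid enkephalins, was at 4.99 FPKM in siSRSF1, 9.75 in siSRSF2 and 13.6 in siNC. Cartpt, the gene of the appetite-suppressing CART peptides, was at 3.73 FPKM in siSRSF1, 8.05 in siSRSF2 and 9.57 in siNC. The counting intervals of these neighbours overlapped in siSRSF1 (4.13 to 5.97 for Penk and 2.90 to 4.72 for Cartpt) and in siSRSF2 (8.54 to 11.1 for Penk and 6.82 to 9.45 for Cartpt), and did not in siNC (12.1 to 15.3 for Penk and 8.12 to 11.2 for Cartpt).

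Ppy was low, near the minimum of 20 reads, and Pyy was near absent. Ppy, which encodes pancreatic polypeptide, had 22 reads in siSRSF1, 11 in siSRSF2 and 16 in siNC. That is 3.04 FPKM in siSRSF1, 1.5 in siSRSF2 and 2.52 in siNC. Its interval in siSRSF1 (1.90 to 4.60 FPKM) overlapped that of Cartpt. Pyy, the gene of the gut satiety peptide YY, had 2 reads in siSRSF1, 7 in siSRSF2 and 2 in siNC, and was under the minimum of 20 reads in every library. The upper end of its interval was 0.791 FPKM in siSRSF1, 1.56 in siSRSF2 and 0.902 in siNC, and in siSRSF2 it overlapped that of Ppy. Npy, Ppy and Pyy form 1 peptide family, and Ppy and Pyy are neighbours on chromosome 11, 5.36 kilobases apart, whereas Npy lies on chromosome 6. The family thus held the lowest of the 8 levels, Pyy, and the next to highest, Npy.

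In GENCODE M21 the coordinates of all 8 genes were those of the table, on GRCm38. Cck lies on chromosome 9 (121489824 to 121495694, minus strand), Penk on chromosome 4 (4133531 to 4138819, minus strand) and Cartpt on chromosome 13 (99898489 to 99901091, minus strand). Npy lies on chromosome 6 (49822710 to 49829507, plus strand), Gcg on chromosome 2 (62474530 to 62483650, minus strand) and Sst on chromosome 16 (23889573 to 23890958, minus strand). The genes are compact: the longest annotated transcript has 2 exons for Penk and Sst, 3 for Cartpt, 4 for Cck, Npy, Pyy and Ppy and 6 for Gcg. Cck has 6 annotated transcripts, 1 of them classed as a target of nonsense-mediated decay. Counts per gene do not separate isoforms, so exon use was not analysed. Penk is overlapped by the antisense transcript A830012C17Rik, which had no line in the table. No source states whether reads were counted by strand, so reads of these genes cannot be told apart.

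The promoters of some of these genes are textbook targets of cyclic AMP signalling through the cyclic AMP response element (CRE), bound by CREB and related factors. The 150 bases before the RefSeq start (GRCm38.p6) were searched on both strands for TGACGTCA, the full CRE, which reads the same on both strands, and for TGCGTCA, a variant that does not overlap it. RefSeq promoters were matched for 7 of the 8 genes. None was matched for Penk, which was therefore not searched. The full CRE letters stood in 2 of these 7, Sst (48 bases before the start) and Cartpt (112 bases before), and in 1.36% of 32851 mouse promoter windows of the same length. The variant stood in Cck, 49 bases before the start, and in 1.32% of the windows. The RefSeq starts of Cartpt and Sst lie inside the spans that the table gives for these genes. These 3 promoters are shown because they hold the letters in genes that differ in their pattern between libraries, and Npy because it holds neither; capitals mark the matches.
Cck, chr9:121495695-121495844, minus strand: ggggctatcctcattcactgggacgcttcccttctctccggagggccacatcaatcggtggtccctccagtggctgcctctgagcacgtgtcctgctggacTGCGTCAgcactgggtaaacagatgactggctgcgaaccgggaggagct
Cartpt, chr13:99900684-99900833, minus strand: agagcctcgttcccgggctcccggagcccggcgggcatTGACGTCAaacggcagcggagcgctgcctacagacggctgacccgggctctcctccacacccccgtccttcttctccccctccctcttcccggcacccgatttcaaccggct
Sst, chr16:23890845-23890994, minus strand: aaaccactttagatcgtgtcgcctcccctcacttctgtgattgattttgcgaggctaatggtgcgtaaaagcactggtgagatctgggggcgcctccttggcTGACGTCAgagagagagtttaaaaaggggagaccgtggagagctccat
Npy, chr6:49822560-49822709, plus strand: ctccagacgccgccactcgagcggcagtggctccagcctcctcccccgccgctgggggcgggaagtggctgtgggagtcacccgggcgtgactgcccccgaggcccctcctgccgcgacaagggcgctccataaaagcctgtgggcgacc
A match of letters is a description of the window and not a mapped site. Of the 2 genes with the full CRE letters, Cartpt was lowest in siSRSF1 and Sst lowest in siSRSF2. Any link between the letters and these levels was not tested.

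For comparisons between libraries, depth was scaled with TMM factors (trimmed mean of M values), and genes under 20 reads in both libraries of a pair were left out. A call, higher or lower, required a ratio of at least 2-fold with an interval that excluded 1. In siSRSF1 against siNC, Cck was called higher and Penk and Cartpt lower. Of 7 genes compared, 1 was called higher, beside 2.4% of 11602 genes compared in the table, and 2 were called lower, beside 1.2%; calls in either direction made up 3.6% of the table. The median log2 ratio of the 7 was 0.24, beside 0.00 for all genes compared. Ppy entered the comparison only through the siSRSF1 library, and Pyy was not compared.

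Cck had 5811 CPM in siSRSF1 and 2882 in siNC, a ratio of 2.02 (1.99 to 2.04), and 281 of the 11602 genes had a higher one. The 2-fold limit lies within this interval, and correction for transcript GC content (1.82) or for gene length (1.79) ended the call. Penk had 118 reads in siSRSF1 and 283 in siNC, which is 8.23 against 22.5 CPM and a ratio of 0.367 (0.292 to 0.455). A lower ratio was found for 38 of the genes compared. Cartpt had 69 reads in siSRSF1 and 155 in siNC, 4.81 against 12.3 CPM, a ratio of 0.392 (0.290 to 0.522), with 45 genes lower. Both of these low-abundance precursors were thus lower in siSRSF1, while the most abundant one was higher.

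The remaining genes were not called. Npy was at 692.4 CPM in siSRSF1 and 398.6 in siNC, a ratio of 1.74 (1.68 to 1.80) short of the 2-fold rule; 439 genes had a higher one. Length correction put it at 1.41. Gcg stood at 1.18 (1.11 to 1.27), with 141 CPM in siSRSF1 and 119 in siNC. The ratio of Sst was 1.13 (0.963 to 1.34) and that of Ppy 1.2 (0.605 to 2.46), and both intervals included 1.

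**Figure D2:**
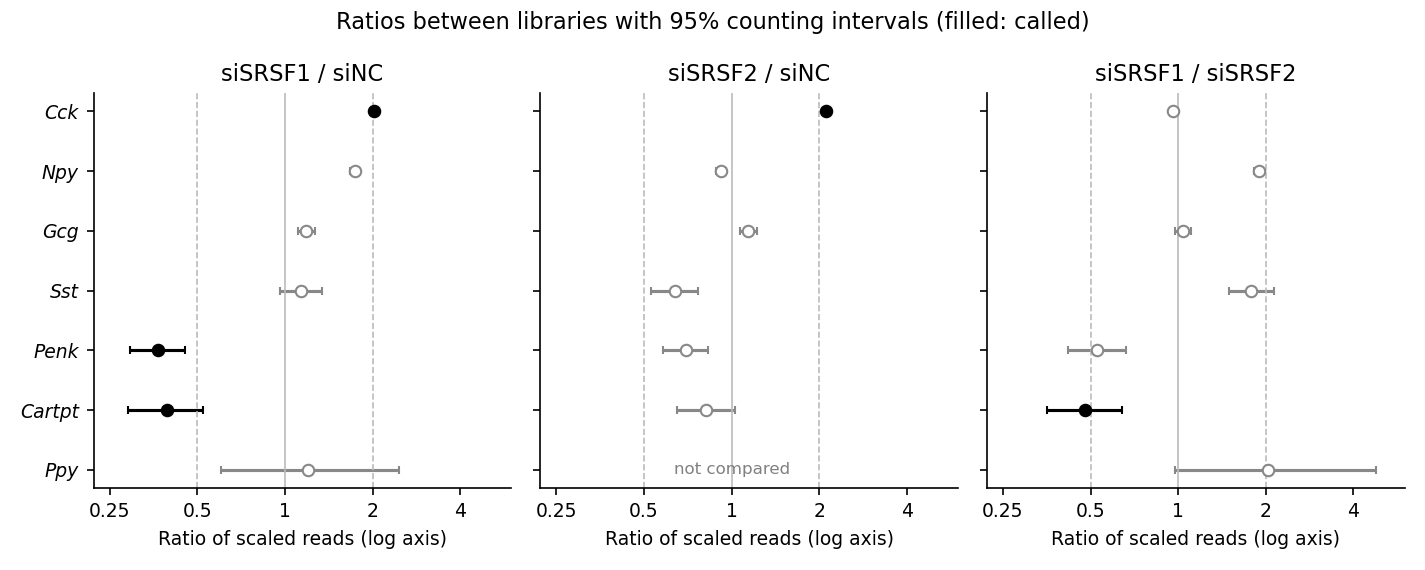
Ratio of scaled reads for the compared genes in each pair of libraries, on a log axis, with 95% counting intervals; filled points are called, and dashed lines mark 0.5 and 2. Cck is called higher in siSRSF1 (2.02) and siSRSF2 (2.10) against siNC, and Penk (0.367) and Cartpt (0.392) are called lower in siSRSF1 against siNC.

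In siSRSF2 against siNC, Cck was the 1 gene called among 6 compared. It was called higher, beside 2.51% of 11611 genes in the table, and none was called lower, beside 1.04%; calls in either direction made up 3.55%. The median log2 ratio of the 6 was -0.21, beside 0.02 for all genes compared. Cck had 6064 CPM in siSRSF2 and 2882 in siNC, a ratio of 2.10 (2.08 to 2.13), and 255 genes had a higher one. GC correction gave 1.98 and ended this call too.

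Sst was the lowest of the 6, at 13.3 CPM in siSRSF2 and 20.8 in siNC, a ratio of 0.638 (0.528 to 0.770). Penk had 15.6 CPM in siSRSF2 and 22.5 in siNC, a ratio of 0.695 (0.581 to 0.828). Neither reached the 2-fold rule, and both intervals lay below 1. Npy stood at 0.920 (0.885 to 0.956) and Gcg at 1.14 (1.07 to 1.22). Cartpt, with 151 reads in siSRSF2 and 155 in siNC, had a ratio of 0.818 (0.649 to 1.03), an interval that includes 1. Ppy and Pyy had too few reads to be compared. Both of these comparisons use the same siNC library, so their values are not independent of each other.

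**Figure D3:**
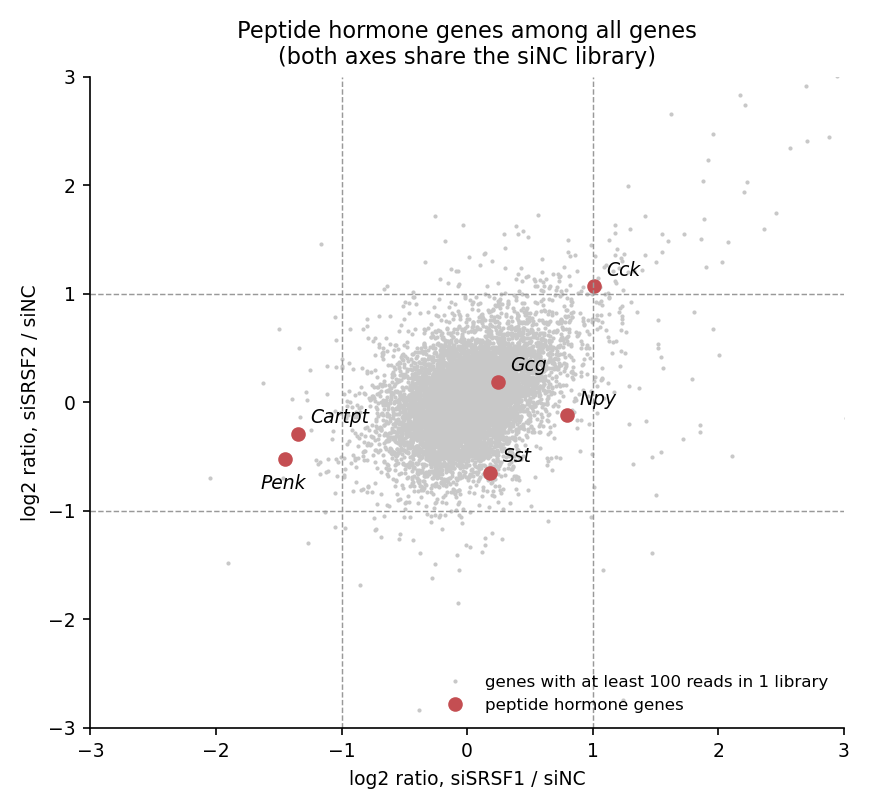
Log2 ratio to siNC in siSRSF1 (horizontal) and siSRSF2 (vertical) for 10177 genes with at least 100 reads in 1 library (grey), with 6 peptide hormone genes in red and dashed lines at 2-fold; 7 genes lie outside the axes. Penk and Cartpt lie left of the line for 2-fold lower in siSRSF1 and above that for siSRSF2, and Cck lies past 2-fold on both axes.

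In the direct comparison of the siRNA libraries, siSRSF1 against siSRSF2, Cartpt was called lower at 0.479 (0.354 to 0.639), with 4.81 CPM in siSRSF1 and 10.1 in siSRSF2. Of 7 genes compared this was the 1 called lower, beside 2.4% of 11705 genes in the table, and none was called higher, beside 1.96%; calls in either direction made up 4.37%. The median log2 ratio of the 7 was 0.05, beside -0.01 for all genes compared. Penk stood at 0.528 (0.419 to 0.660), just short of the rule, and length correction put it at 0.490 and within it. Npy had 692.4 CPM in siSRSF1 and 366.6 in siSRSF2, a ratio of 1.89 (1.83 to 1.95), and 280 genes had a higher one. Sst had 23.7 CPM in siSRSF1 and 13.3 in siSRSF2, a ratio of 1.78 (1.49 to 2.13).

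Cck was at 0.958 (0.949 to 0.967) between the siRNA libraries and Gcg at 1.04 (0.976 to 1.10). The ratio of Ppy was 2.04, but its interval of 0.971 to 4.77 includes 1. By library, siSRSF1 held the highest scaled level of Npy, Gcg, Sst and Ppy and the lowest of Penk, Cartpt and Pyy, siSRSF2 the highest of Cck and Pyy and the lowest of Sst, Npy and Ppy, and siNC the highest of Penk and Cartpt and the lowest of Cck and Gcg. These orders ignore the counting intervals, which overlap for Pyy, Ppy and, in part, Gcg, Sst and Cartpt.

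Genes with the most similar pattern were sought among 9974 named genes with at least 100 reads in 1 library, by distance in the plane of both log2 ratios to siNC. Nearest to Cck were Cox6a2, a subunit of cytochrome c oxidase, at 1.97 in siSRSF1 and 2.11 in siSRSF2, Oscp1, and the forkhead factor gene Foxo6. Nearest to Cartpt were Get1, of the pathway that inserts tail-anchored membrane proteins (0.423 in siSRSF1 and 0.836 in siSRSF2), the protocadherin gene Pcdh7, and Penk itself at a distance of 0.256. Nearest to Penk were Eno3, the muscle enolase (0.361 in siSRSF1 and 0.616 in siSRSF2), Aass, an enzyme of lysine breakdown, and Spef1. Nearest to Npy were Entpd7 (1.75 in siSRSF1 and 0.945 in siSRSF2), H2-T22, a class I histocompatibility gene, and Rassf2. Tuba1c, a tubulin, Chpf and Ankle1 were nearest to Sst, and Zfand5, Atg101, of the autophagy initiation complex, and Acap3 to Gcg. These likenesses rest on 3 libraries and on ratios that share siNC.

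Set among other peptide precursors, the 8 genes ranged from near the top to the middle of the order. Of 62 precursor genes examined, Iapp, which encodes amylin, ranked first per length in every library, followed by Cck and then Npy. The 62 leave out the insulin genes Ins1 and Ins2. Per length, Ins2 was above Iapp in siSRSF1 and siSRSF2 and below it in siNC. Ins1 lay between Cck and Npy in every library. Gcg was the 7th and Sst the 8th in each, Penk the 9th or 10th and Cartpt the 10th or 11th, and Ppy between the 12th and the 15th. Pyy, from 2 to 7 reads, was the 27th in siSRSF1, the 20th in siSRSF2 and the 30th in siNC. The 4th place was held by Pdyn, the precursor of the dynorphin opioids, at 706.0 FPKM in siSRSF1, 497.9 in siSRSF2 and 681.7 in siNC, well above Penk. Of the 54 precursors other than the 8, 9 had at least 20 reads in 1 library and none was called in any of the 3 comparisons. Over all genes compared, 3.6% were called in siSRSF1 against siNC, 3.55% in siSRSF2 against siNC and 4.37% in siSRSF1 against siSRSF2. With 7 to 9 of these precursors compared per pair, none called lies near that share. Pdyn stood at 1.04 in siSRSF1 against siNC and 0.710 in siSRSF2 against siNC, and Iapp at 0.821 in siSRSF1 and 0.722 in siSRSF2. Vgf, a granule protein precursor named after its values were seen, stood at 1.62 (1.57 to 1.67) in siSRSF1 and 0.865 (0.837 to 0.895) in siSRSF2, on the same sides of 1 as Npy; GC correction gave 1.19 in siSRSF1.

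**Figure D4:**
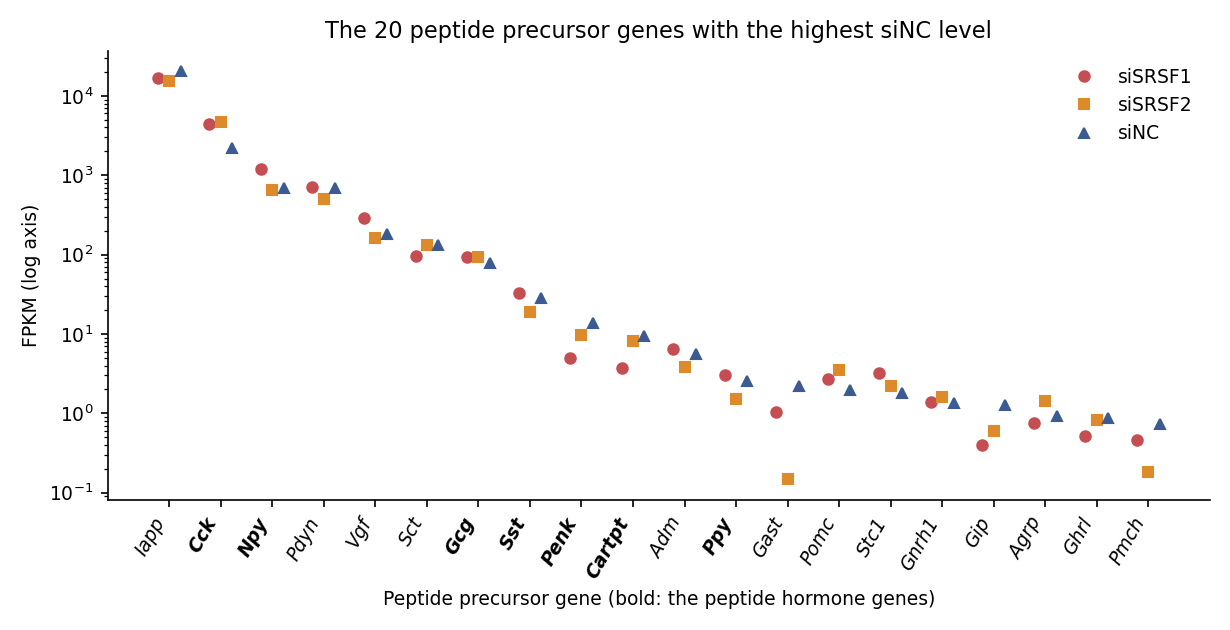
Level per length on a log axis in each library (circles siSRSF1, squares siSRSF2, triangles siNC) for the 20 peptide precursor genes highest in siNC, with the peptide hormone genes in bold. Among these genes, which leave out Ins1 and Ins2, Cck and Npy follow Iapp in every library. Penk and Cartpt are lowest in siSRSF1.

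The receptors of these peptides were mostly not detected. Of 17 receptor genes, 6 had at least 20 reads in 1 library, and 5 had 0 reads in all 3: Npy1r, Npy2r, Npy4r, Npy5r and Sstr4. With 3 reads taken as the limit that a count of 0 allows, the level could be up to 0.209 CPM in siSRSF1, 0.200 in siSRSF2 and 0.239 in siNC. The upper ends of the exact Poisson intervals are 0.257 CPM in siSRSF1, 0.246 in siSRSF2 and 0.293 in siNC. Npy was therefore abundant in libraries in which none of these Npy receptors had a read.

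Cckar, the receptor with preference for sulfated cholecystokinin, was called lower in both siRNA libraries, in which Cck was higher. It had 78 reads in siSRSF1, 110 in siSRSF2 and 258 in siNC, with ratios of 0.266 (0.203 to 0.343) in siSRSF1 and 0.359 (0.284 to 0.449) in siSRSF2 against siNC. Cckbr, which also binds gastrin, stood at 0.975 (0.859 to 1.11) in siSRSF1 and 1.15 (1.02 to 1.30) in siSRSF2. Glp1r, the receptor for the GLP-1 part of the Gcg product, was the most abundant, at 943.1 CPM in siSRSF1, 589.4 in siSRSF2 and 693.5 in siNC, and was not called. Gcgr, the glucagon receptor, had 0 reads in siSRSF1, 2 in siSRSF2 and 1 in siNC.

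Sstr3 was the most abundant somatostatin receptor, with ratios of 0.979 (0.905 to 1.06) in siSRSF1 and 0.717 (0.659 to 0.779) in siSRSF2. Sstr5 had 17 reads in siSRSF1, 7 in siSRSF2 and 22 in siNC, and was called lower in siSRSF2 against siNC at 0.282 (0.0964 to 0.647). It reached 20 reads in siNC alone, the library where it is high, so this call depends on the minimum. Oprd1, the delta opioid receptor that binds enkephalins, had 15 reads in siSRSF1, 33 in siSRSF2 and 25 in siNC. It was called lower in siSRSF1 against siSRSF2, at 0.483 (0.240 to 0.899), having entered that pair through siSRSF2 alone, where it is high. In all, 1 of 6 compared receptors was called lower in siSRSF1 and 2 of 6 in siSRSF2 against siNC, and none was called higher. Among all genes compared, 1.2% were called lower in siSRSF1 and 1.04% in siSRSF2, and 2.4% were called higher in siSRSF1 and 2.51% in siSRSF2.

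**Figure D5:**
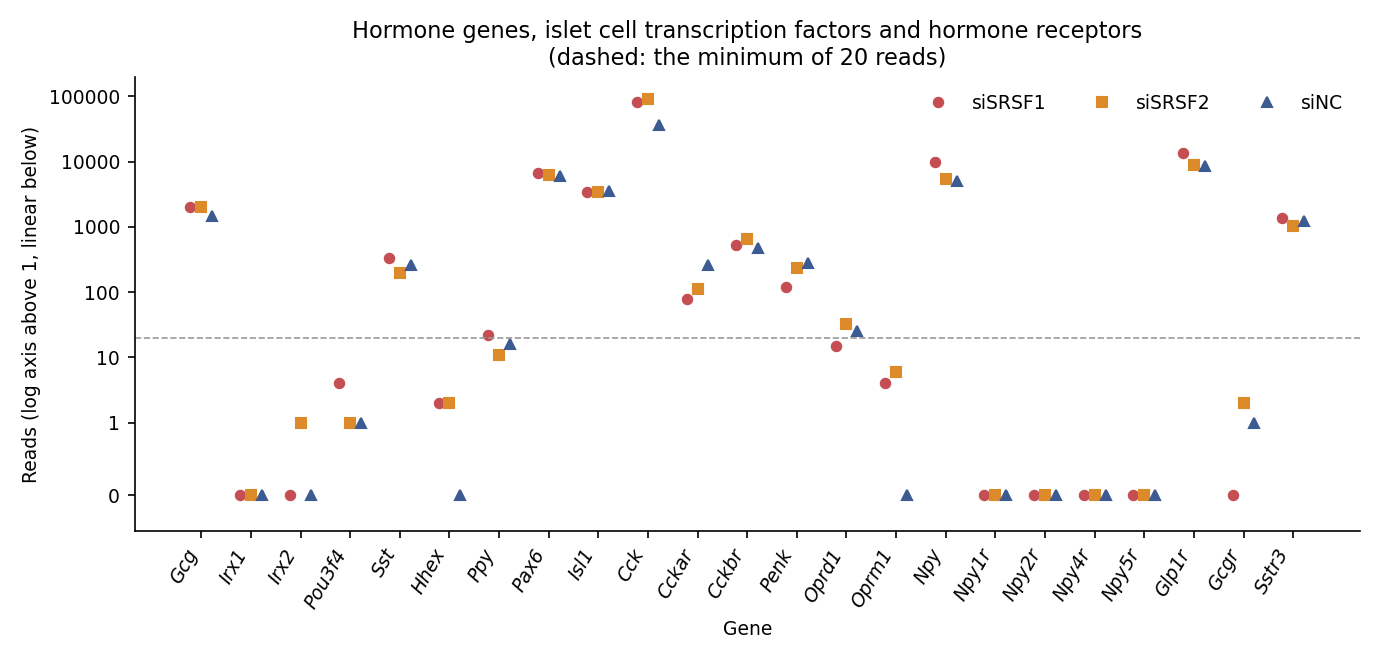
Reads per library (circles siSRSF1, squares siSRSF2, triangles siNC; log axis above 1, linear below) for hormone genes, transcription factors of islet cell types and hormone receptors, with the minimum of 20 reads dashed. Gcg has 1494 to 2029 reads where Irx1 has 0, and Npy at least 5010 where Npy1r, Npy2r, Npy4r and Npy5r have 0.

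The transcription factor genes Irx1, Irx2 and Hhex were at or near 0 reads where Gcg and Sst were detected. Irx1, a factor of the alpha cell, had 0 reads in every library, and the related Irx2 had 0 in siSRSF1, 1 in siSRSF2 and 0 in siNC, while Gcg had at least 1494 reads. Hhex, which the delta cell needs, had 2 reads in siSRSF1, 2 in siSRSF2 and 0 in siNC. Sst, its counterpart, had 339 reads in siSRSF1, 199 in siSRSF2 and 262 in siNC. Factors shared by the endocrine cell types were present, with Pax6 at 466 CPM in siSRSF1, 414 in siSRSF2 and 488 in siNC. Of 17 endocrine factors 7 were compared: Insm1, a zinc finger factor of endocrine differentiation, was called higher in siSRSF1 (2.84) and in siSRSF2 (2.45) against siNC. Over all genes compared, 2.4% were called higher in siSRSF1 and 2.51% in siSRSF2 against siNC. Foxa1, a forkhead factor, had 21 reads in siSRSF1, 45 in siSRSF2 and 13 in siNC, and was called higher in siSRSF2 against siNC (2.84) and lower in siSRSF1 against siSRSF2 (0.493); it entered the pair with siNC through siSRSF2 alone, where it is high.

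Genes that process the precursors were all expressed. Of 12 such genes, Pcsk1n, which encodes the convertase inhibitor proSAAS, was called higher in both siRNA libraries, at 585 CPM in siSRSF1, 841 in siSRSF2 and 126 in siNC. The other 11 were not called. Over the whole table, 3.6% of genes compared were called in siSRSF1 against siNC, 3.55% in siSRSF2 against siNC and 4.37% in siSRSF1 against siSRSF2. Cpe, the carboxypeptidase that trims basic residues, stood at 1.05 in siSRSF1 and 1.33 in siSRSF2, and Pcsk2, a prohormone convertase, at 0.645 in siSRSF1 and 0.631 in siSRSF2, all against siNC. Among 11 genes of the CREB pathway none was called in any comparison, which is near the share over the whole table. Their median log2 ratio was -0.05 in siSRSF1 and 0.06 in siSRSF2 against siNC, with Ep300, a coactivator, at 0.966 in siSRSF1 and 1.41 in siSRSF2, and Atf2 at 0.796 in siSRSF1 and 0.921 in siSRSF2. Among 11 beta-cell markers Mafa (2.47) and Slc2a2 (2.37) were called higher in siSRSF1, and Nkx6-1 (2.10) higher and Slc2a2 (0.149) lower in siSRSF2, both against siNC. GC correction ended the calls of Mafa (1.76) and Nkx6-1 (1.88). Slc2a2, the glucose transporter GLUT2, had 114 reads in siSRSF1, 7 in siSRSF2 and 42 in siNC, and entered the pair of siSRSF2 and siNC through siNC alone, where it is high.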

How the data were processed

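Expression was measured in 3 libraries of MIN6 cells, 1 per group. The deposited table gives, per the file headers, whole-number read counts and an FPKM per library for each Ensembl gene. The authors' FPKM equalled count over length and column total within 0.00045% in every library. Per the submitters' processing notes, the tool was Bowtie2 2.4.2 and the build GRCm38 (mm10); no source states the counter, annotation release or strand setting. Lines that share a symbol (67) were summed. TMM factors (edgeR 4.0.16, R 4.3.3) were 0.990 for siSRSF1, 1.02 for siSRSF2 and 0.991 for siNC. Ratios used a prior of 0.5 reads, with exact Clopper-Pearson 95% intervals of the read share; levels have exact Poisson intervals. Reads without molecular identifiers are not independent molecules, so intervals cover counting error only. Fits used the whole table. The procedure was run on simulated counts with counting error alone, the error that the intervals assume. The simulation held no variation between cultures and no changes near the 2-fold limit, so it cannot speak for calls there. Corrections for transcript GC content (21793 symbols with a value) and length used lowess (fraction 0.3, statsmodels 0.14.6). The 8 genes and all lists were chosen with earlier results of these data known. Named genes were the 8 members, list members called in any comparison, the 2 most abundant of each list and the 3 nearest patterns; further genes are given to describe a list. Alternatives were median-of-ratios scaling (DESeq2 1.42.0), plain totals, totals without Ins1, Ins2 and Cck, other read minima, prior and fold, and both corrections.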

Additional observations from a re-analysis of the deposited data

How the results depend on the processing

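The 8 genes gave 178 ratios under the 9 alternatives, of which 159 lay inside the main counting interval and 19 outside it. The other read minima and the other fold do not enter a ratio. Ratios under these settings equalled the main ones by construction and are no sign of stability. None of the 178 moved by over 1.5 times, and no called gene changed side of 1. The number of genes called in the whole table followed the minimum of reads and the fold. In siSRSF1 against siNC it was 418, and 674 with no minimum, 157 with a minimum of 100 reads and 1204 at a fold of 1.5. In siSRSF2 against siNC it was 412, against 623, 173 and 1337 under the same settings, and in siSRSF1 against siSRSF2 it was 511, against 844, 195 and 1567. Of the peptide genes called, siSRSF1 against siNC had 3 (2 with GC correction, 2 with length correction, 4 at a fold of 1.5), siSRSF2 against siNC had 1 (0 with GC correction, 2 at a fold of 1.5), and siSRSF1 against siSRSF2 had 1 (2 with length correction, 4 at a fold of 1.5). Cck ranged from 1.79 to 2.02 in siSRSF1 and from 1.98 to 2.20 in siSRSF2 against siNC. Uncalled ratios of Sst, Ppy and Gcg crossed 1 in 4 cases. Length correction put Sst at 0.946 and Ppy at 0.960 in siSRSF1 against siNC. It also put Gcg at 0.955 in siSRSF1 against siSRSF2. Totals without Ins1, Ins2 and Cck put Gcg at 0.997 in that same pair. Why these settings moved the ratios was not tested. No paired analysis was possible because each group holds 1 library. No ratio of Pyy can be given at this depth, and that of Ppy is uncertain by about its own size.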

Other observations

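Most other peptide precursor genes were near absent. Of the 54 examined, 45 had fewer than 20 reads in every library and 13 had 0 reads in all 3, among them Vip, Avp and Kiss1. Gast, which encodes gastrin, a relative of cholecystokinin, had 7 reads in siSRSF1, 1 in siSRSF2 and 13 in siNC. Guca2a, the guanylin gene, had 13 reads in siSRSF1, 3 in siSRSF2 and 0 in siNC. Sct, the secretin gene, had 909 reads in siSRSF1, 1255 in siSRSF2 and 1085 in siNC. These genes were picked after their values were seen, and no ratio was taken from counts this low for Gast and Guca2a.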
